A study of Homo sapiens with 6 samples.

Results

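The androgen synthesis and conversion enzymes described here are 10 genes, CYP11A1, CYP17A1, HSD3B1, HSD17B3, AKR1C3, SRD5A1, SRD5A3, HSD17B6, AKR1C1 and AKR1C2, found by their symbols among the 58024 genes of an RNA-Seq expression table. Each symbol matched a single row. RNA-Seq covered 2 groups, C4-2B parental and C4-2B enzalutamide resistant cells, with 3 libraries each that are numbered replicates 0, 1 and 2. C4-2B is a human prostate cancer cell line derived from LNCaP cells through growth in castrated mice, and enzalutamide is a drug that blocks androgen signaling in prostate cancer. The comparison asked which of the enzymes that make or convert androgens differed in expression between resistant and parental cells. The resistant cells had been passaged over a minimum of 6 months in enzalutamide rising from 1 to 20 µM, with 5 µM used for upkeep afterwards, and the labels describe RNA extraction after 10 µM enzalutamide in words that do not settle whether the parental cells also received it. The parental cells carried the vehicle, which the labels give as 1% dimethyl sulfoxide, a higher share than the study's methods state. Both groups were grown in RPMI-1640 medium with fetal bovine serum, and the surviving resistant cells were pooled, so that the resistant group is 1 selected population. Whether the libraries of a group came from separate cultures is not stated in the sources used here, so the p values below measure only the spread between these libraries.

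Androgens are made from cholesterol in a chain of steps. CYP11A1 cuts the side chain, CYP17A1 forms the first androgen precursors, and HSD3B1 with the 17-ketosteroid reductases HSD17B3 and AKR1C3 lead to testosterone. SRD5A enzymes then form dihydrotestosterone, the most potent natural androgen, which AKR1C1 and AKR1C2 break down to androstanediols and HSD17B6 can restore. Prostate tumors can also convert adrenal precursors through these late steps when testicular androgen is low.

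Values are given as FPKM, the number of fragments divided by transcript length and library size, so that levels can be compared between genes. They summed to between 792976 and 870110 FPKM per library, and 21956 to 27153 genes were above 0. The highest number was that of resistant replicate 0, and no other library had more than 24080. The table gives no read counts. A rough estimate of depth from genes with 1 annotated transcript, for a fragment length set at 200 bases, gave 13650000 to 20050000 reads, although only 24.6% to 31.5% of the low values lay within 0.05 of a whole read. A value of 0 is therefore reported only as listed at 0. Of 10 prostate luminal markers, none was at 0 in any library, and their summed level was 4150 to 4920 FPKM in parental and 1180 to 1260 FPKM in resistant libraries. KLK3, the androgen-responsive gene that encodes prostate-specific antigen, fell from a mean of 2560 to 44 FPKM (adjusted p = 1.1e-06, limma) and weighs heavily in this sum. Of the 10 markers, 2 rose, 6 fell and 2 did not pass the threshold, beside 22.1% of all genes tested that rose and 22.3% that fell. KRT8 rose from a mean of 139 to 170 FPKM (adjusted p = 0.0466, limma), and HOXB13 had means of 103 and 102 FPKM. The summed level of 6 neuroendocrine markers was 0.99 to 2.44 FPKM in parental and 76.0 to 84.9 FPKM in resistant libraries. All 4 of them that were tested rose, against 22.1% of all genes tested. Among these 4, CHGA, CHGB and SCG3 reached the minimum mean of 0.1 FPKM only through the resistant libraries, so that the count carries no information of its own. The summed level of 4 fibroblast markers was 5.09 to 8.74 FPKM in parental and 7.64 to 12.4 FPKM in resistant libraries. Of the 3 that were tested, DCN and LUM rose, against 22.1% of all genes tested, and COL1A1 did not pass the threshold. Both DCN and LUM reached the minimum mean only through the resistant libraries. The part of the neuroendocrine and fibroblast marker differences in the results below was not tested. Since these are bulk cultures, a change in the share of cells that express a gene and a change in RNA per cell cannot be told apart.

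The strongest difference lay in the AKR1C reductases. AKR1C3, AKR1C2 and AKR1C1 were near or at 0 in parental cells and reached mean levels of 90.5, 9.78 and 4.66 FPKM in resistant cells. SRD5A3 and HSD17B6 rose by factors of 2.51 and 2.05, SRD5A1 was not past the threshold, and CYP11A1 was listed at 0 in every resistant library. With an adjusted p under 0.05 from limma on log2(FPKM + 0.1), 6 of the 10 enzymes were called, 5 higher and 1 lower in resistant cells, against 44.4% of the 24468 genes tested, 22.1% higher and 22.3% lower. Of the remaining enzymes, 3 did not pass the threshold and HSD3B1 was under the minimum mean of 0.1 FPKM and was not tested. For 4 members, CYP11A1, CYP17A1, HSD17B3 and AKR1C1, all 3 values of a group were 0, so that they reached the minimum only through the group in which they were high, and no fold change is given for them. In every enzyme, an exact permutation test over 3 and 3 libraries cannot go below p = 0.1.

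**Figure D1:**
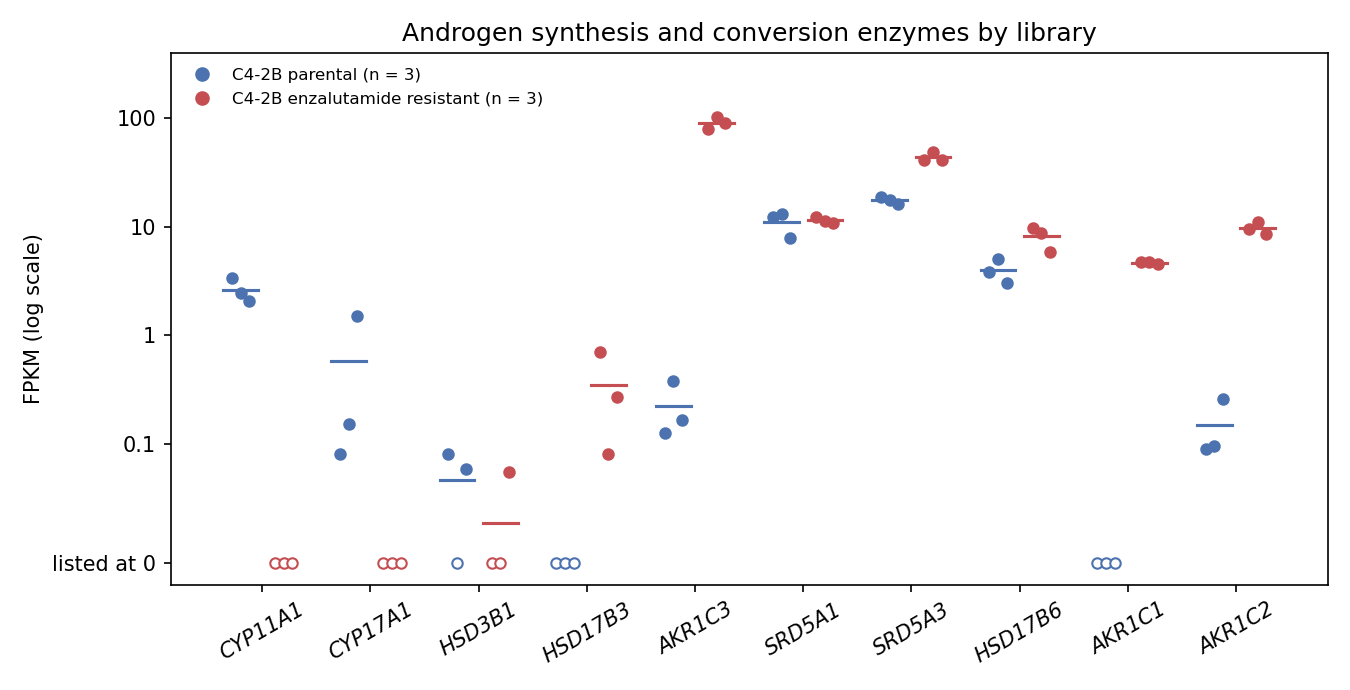
FPKM on a log scale of the 10 enzymes in each library, with parental libraries in blue, resistant libraries in red, lines at the group means and open circles for values listed at 0. AKR1C3 lies between 79.3 and 102 FPKM in resistant cells and at or below 0.380 FPKM in parental cells, while the values of SRD5A1 overlap.

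CYP11A1 (ENSG00000140459.17, chr15:74337759-74367646 on GRCh38, minus strand) catalyses the first and rate-limiting step of steroid synthesis in mitochondria. Its level was 3.35, 2.45 and 2.06 FPKM in parental replicates 0, 1 and 2 and was listed at 0 in all 3 resistant libraries. The groups did not overlap, a pattern found in 54.8% of all genes tested and in 28.1% with the resistant values lower, and CYP11A1 fell (adjusted p = 0.000144, limma). Of the genes tested, 3.95% were listed at 0 in all resistant libraries. A single read on the canonical transcript was worth about 0.0304 to 0.0447 FPKM, so the parental values lay far above that of 1 read.

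CYP17A1 (ENSG00000148795.5, chr10:102830531-102837472, minus strand) hydroxylates and then cleaves steroids to give androgen precursors, and is the target of abiraterone. It was measured at 0.0804, 0.151 and 1.5 FPKM in parental replicates 0, 1 and 2 and was listed at 0 in the resistant libraries. The groups did not overlap, but parental replicate 2 held most of the signal and the difference did not pass the threshold (adjusted p = 0.103, limma). Without that library the mean of CYP17A1 was under the minimum of 0.1 FPKM and the gene was not tested. With a pseudocount of 0.01 FPKM the adjusted p was 0.0255.

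HSD3B1 (ENSG00000203857.9, chr1:119507198-119515054, plus strand) oxidises dehydroepiandrosterone to androstenedione. Its level was 0.0813, 0 and 0.0588 FPKM in parental and 0, 0 and 0.0555 FPKM in resistant libraries. The groups overlapped, and each value above 0 was within a few reads, since 1 read was worth about 0.0339 to 0.0498 FPKM. Any difference in HSD3B1 was not detectable at this depth. HSD3B2, the enzyme of the same step in the adrenal gland and gonads, was listed at 0 in all 6 libraries.

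HSD17B3 (ENSG00000130948.9, chr9:96235306-96302176, minus strand) reduces androstenedione to testosterone in the testis. It was listed at 0 in all parental libraries and measured 0.70, 0.0813 and 0.271 FPKM in resistant replicates 0, 1 and 2. The lowest resistant value was near that of a single read, about 0.0520 to 0.0763 FPKM. The difference did not pass the threshold (adjusted p = 0.0501, limma), and the call depended on the setting, with an adjusted p of 0.0141 at a pseudocount of 0.01 FPKM and of 0.0191 without resistant replicate 1. Without resistant replicate 0, the highest of them, the mean was under the minimum and the gene was not tested.

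AKR1C3 (ENSG00000196139.13, chr10:5035354-5107686, plus strand) carries out the same reduction outside the testis and also reduces prostaglandin D. Its level was 0.125, 0.380 and 0.166 FPKM in parental and 79.3, 102 and 90.3 FPKM in resistant libraries. Every resistant value lay far above every parental value, and such an order without overlap was found in 26.6% of all genes tested. AKR1C3 rose, with means of 0.224 ± 0.137 and 90.5 ± 11.3 FPKM (SD, n = 3 each), a ratio of 404 between them, and percentiles of 18.2 and 95 among all genes tested in the respective group. The log2 fold change was 8.20 (SE 0.30, 95% interval 7.47 to 8.93, adjusted p = 1.27e-05, limma), the 16th of 21925 genes above 0 in both groups. The parental values correspond to a few reads each at about 0.0505 to 0.0742 FPKM per read, and the log2 fold change depended on the pseudocount, at 6.22 with 1 FPKM and 8.74 with 0.01 FPKM.

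AKR1C2 (ENSG00000151632.17, chr10:4987775-5018031, minus strand) reduces dihydrotestosterone to an androstanediol with little androgenic activity. It was measured at 0.0893, 0.0952 and 0.261 FPKM in parental and 9.57, 11.2 and 8.57 FPKM in resistant libraries. The groups were far apart, with means of 0.149 ± 0.0976 and 9.78 ± 1.32 FPKM (SD, n = 3 each) and a ratio of 65.8. AKR1C2 rose with a log2 fold change of 5.37 (SE 0.33, 95% interval 4.56 to 6.18, adjusted p = 6.93e-05, limma), and this value moved to 3.23 and 6.10 when the pseudocount was 1 and 0.01 FPKM.

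AKR1C1 (ENSG00000187134.13, chr10:4963253-4983283, plus strand) inactivates progesterone as well as dihydrotestosterone. It was listed at 0 in all 3 parental libraries and measured 4.71, 4.77 and 4.5 FPKM in the resistant libraries. The resistant values varied little, with a mean of 4.66 ± 0.144 FPKM (SD, n = 3), and AKR1C1 rose (adjusted p = 3.87e-05, limma). Of all genes tested, 6.44% were listed at 0 in all parental libraries.

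AKR1C1, AKR1C2 and AKR1C3 are close paralogs, so that the counting may have split reads between them, and how reads with several matches were assigned is not given in the sources used here. Of all 50-base windows of the canonical transcript, the length of the reads, 47.3% of AKR1C2, 22.7% of AKR1C1 and 18.6% of AKR1C3 were also present in another gene of the table. AKR1C2 shared 45.7% of its windows with AKR1C1, whereas AKR1C3 shared 14.9% with AKR1C2 and 11.9% with AKR1C1. The shares depend on transcript length, since AKR1C1 has 6494 windows, of which 1472 were shared, and AKR1C3 has 1137 in all. The split between AKR1C1 and AKR1C2 is therefore uncertain. AKR1C3, the highest of the 3 in resistant cells, has 169 windows in common with AKR1C2 and 135 with AKR1C1. The resistant levels of AKR1C1 and AKR1C2 may therefore also hold reads of AKR1C3, which was not tested. Since FPKM is divided by transcript length, which differs between the 3 genes, their summed FPKM also depends on that split. It was 0.215, 0.475 and 0.427 FPKM in parental and 93.6, 118 and 103 FPKM in resistant libraries. This sum rose with a log2 fold change of 7.84 (SE 0.25, adjusted p = 7.93e-06, limma), which was 6.27 with a pseudocount of 1 FPKM. Within the resistant libraries AKR1C3 was 8.28, 9.12 and 10.5 times as high as AKR1C2, and AKR1C2 was 2.03, 2.34 and 1.91 times as high as AKR1C1.

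**Figure D2:**
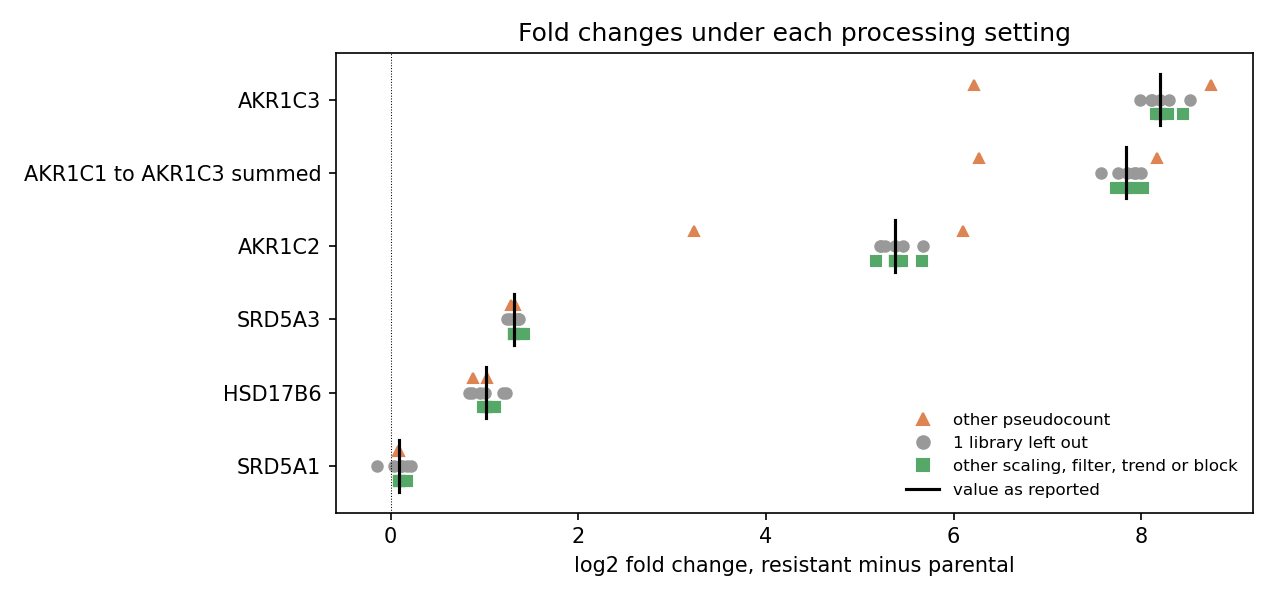
Log2 fold change (resistant minus parental) of the 5 enzymes with values above 0 in both groups that were tested, and of the summed AKR1C genes, as reported (black line), with other pseudocounts (triangles), with 1 library left out (circles) and with other scaling, filter, trend or block (squares). AKR1C3 ranged from 6.22 to 8.74 and SRD5A3 from 1.24 to 1.42, while SRD5A1 lay on both sides of 0.

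The promoters of the AKR1C genes are shown because these 3 genes rose together. RefSeq (GRCh38.p14) gives a single start site for AKR1C1 and AKR1C2 and 2 start sites for AKR1C3, each with a window of 300 bases around the start. Which AKR1C3 start the reads came from was not analysed here. Printed 5′ to 3′ on the strand of the gene, AKR1C1 (chr10:4963165-4963464, plus strand) and both AKR1C3 windows (chr10:5048531-5048830 and chr10:5094164-5094463, plus strand) read as follows, where capitals mark the longest run of letters common to all AKR1C windows.
AKR1C1: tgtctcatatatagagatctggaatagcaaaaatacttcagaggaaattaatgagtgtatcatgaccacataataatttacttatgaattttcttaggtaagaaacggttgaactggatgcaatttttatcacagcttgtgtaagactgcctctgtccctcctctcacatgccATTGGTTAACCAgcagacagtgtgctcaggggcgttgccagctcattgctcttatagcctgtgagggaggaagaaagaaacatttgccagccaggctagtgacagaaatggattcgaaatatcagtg
AKR1C3 window 1: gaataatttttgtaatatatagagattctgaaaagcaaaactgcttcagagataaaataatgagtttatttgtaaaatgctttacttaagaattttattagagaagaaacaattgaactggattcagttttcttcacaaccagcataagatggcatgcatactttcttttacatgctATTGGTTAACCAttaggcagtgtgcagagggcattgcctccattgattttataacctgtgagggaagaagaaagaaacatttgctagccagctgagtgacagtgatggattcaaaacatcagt
AKR1C3 window 2: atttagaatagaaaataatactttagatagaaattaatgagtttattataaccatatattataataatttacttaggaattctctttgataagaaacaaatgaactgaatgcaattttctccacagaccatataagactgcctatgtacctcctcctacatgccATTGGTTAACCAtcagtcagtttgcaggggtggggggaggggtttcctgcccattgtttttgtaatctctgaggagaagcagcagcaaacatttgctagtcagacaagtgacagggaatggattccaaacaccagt
The AKR1C2 window (chr10:5003808-5004107, minus strand) is not printed because it was identical to AKR1C1 at 98.6% of 292 aligned bases. AKR1C3 windows matched the AKR1C1 and AKR1C2 windows at 77.7% to 80.6% of aligned bases. The shared 12-base run ATTGGTTAACCA began 77, 81, 73 and 86 bases before the start site in AKR1C1, AKR1C2, AKR1C3 window 1 and AKR1C3 window 2, and was found in 5 of 35116 RefSeq promoter windows, the other being that of PPFIA2.

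The run contains ATTGG, the reverse strand of CCAAT, and GTTAAC, which overlaps it by 1 base and was chosen after the run was seen. On both strands, CCAAT and GTTAAC were each found once in every one of the 4 AKR1C windows, inside the run. Neither was found in a window of the other enzymes with an entry. Since the run was picked as common to the 4 windows, the matches in them were fixed in advance and tell nothing about enrichment. Over all promoter windows, CCAAT was found in 34.6% and GTTAAC in 2.64%. TGACNNNGC, the core of the antioxidant response element, was found in none of the AKR1C windows and in that of SRD5A3, against 13.3% of all windows. A match describes letters in the window only, and no factor binding was measured.

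SRD5A3 (ENSG00000128039.10, chr4:55346213-55373100, plus strand) reduces polyprenol to dolichol for protein glycosylation and is also counted among the steroid reductases. Its level was 18.7, 17.5 and 16.3 FPKM in parental and 41.4, 49.2 and 41.5 FPKM in resistant libraries. The groups were clearly apart, and the mean rose from 17.5 ± 1.20 to 44 ± 4.46 FPKM (SD, n = 3 each). The log2 fold change was 1.32 (SE 0.11, 95% interval 1.07 to 1.58, adjusted p = 0.000181, limma). An antisense gene, SRD5A3-AS1, overlaps it, and whether the counting used strand is not stated, but the values of this partner reached only 0.651 FPKM. Another gene given at the same locus, RP11-177J6.1, was measured at 0.414, 0 and 1.22 FPKM in parental and 0.514, 0 and 0 FPKM in resistant libraries.

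SRD5A1 (ENSG00000145545.11, chr5:6633427-6674386, plus strand) reduces testosterone and androstenedione in skin, liver and prostate tumors. It was measured at 12.2, 13.0 and 7.93 FPKM in parental and 12.3, 11.3 and 10.9 FPKM in resistant libraries. The groups overlapped and the log2 fold change was 0.09 (SE 0.20, 95% interval -0.41 to 0.58, adjusted p = 0.762, limma), or -0.14 without parental replicate 2. SRD5A2, the reductase of the normal prostate, was listed at 0 in all 6 libraries. The ratio of SRD5A3 to SRD5A1 was 1.53, 1.34 and 2.06 in parental and 3.36, 4.37 and 3.80 in resistant libraries, without overlap (exact permutation p = 0.1, two-sided, the smallest this design allows).

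HSD17B6 (ENSG00000025423.11, chr12:56752161-56787790, plus strand) oxidises androstanediol back to dihydrotestosterone. Its level was 3.83, 5.06 and 3.03 FPKM in parental and 9.76, 8.77 and 5.92 FPKM in resistant libraries. The lowest resistant value lay just above the highest parental value. HSD17B6 rose with a log2 fold change of 1.02 (SE 0.27, 95% interval 0.37 to 1.66, adjusted p = 0.0219, limma), and the call was lost without parental replicate 0 (adjusted p = 0.0612), parental replicate 2 (0.0610), resistant replicate 0 (0.0758) or resistant replicate 1 (0.0758). The gene overlaps PRIM1 on the opposite strand, which was measured at 39.4, 30.8 and 33.7 FPKM in parental and 50.6, 54.5 and 59.6 FPKM in resistant libraries. Without strand, reads from HSD17B6 and PRIM1 cannot be told apart where they overlap. Another gene given at the same locus, NACA, was measured at 1040, 1050 and 1090 FPKM in parental and 716, 813 and 767 FPKM in resistant libraries.

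The order of levels differed between the groups. In parental cells SRD5A3 was highest, followed by SRD5A1 and then by HSD17B6 and CYP11A1, whose ranges overlapped, and the other 6 enzymes had means below 1 FPKM. In resistant cells AKR1C3 was highest, followed by SRD5A3, then by SRD5A1, AKR1C2 and HSD17B6, of which each overlapped its neighbor in the order, and by AKR1C1. HSD17B3 and HSD3B1 followed, and CYP17A1 and CYP11A1 were listed at 0.

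The summed level of the 10 enzymes was 38.5, 38.7 and 31.3 FPKM in parental and 158, 187 and 162 FPKM in resistant libraries. AKR1C1 to AKR1C3 took 0.558%, 1.23% and 1.37% of this sum in parental and 59.3%, 63.0% and 63.8% in resistant libraries. The share of SRD5A1 and SRD5A3 was 80.4%, 79.0% and 77.4% in parental and 34.0%, 32.3% and 32.4% in resistant libraries. Shares of 1 sum are bound to each other, so that a lower share of the SRD5A enzymes stands beside a higher level of SRD5A3.

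**Figure D3:**
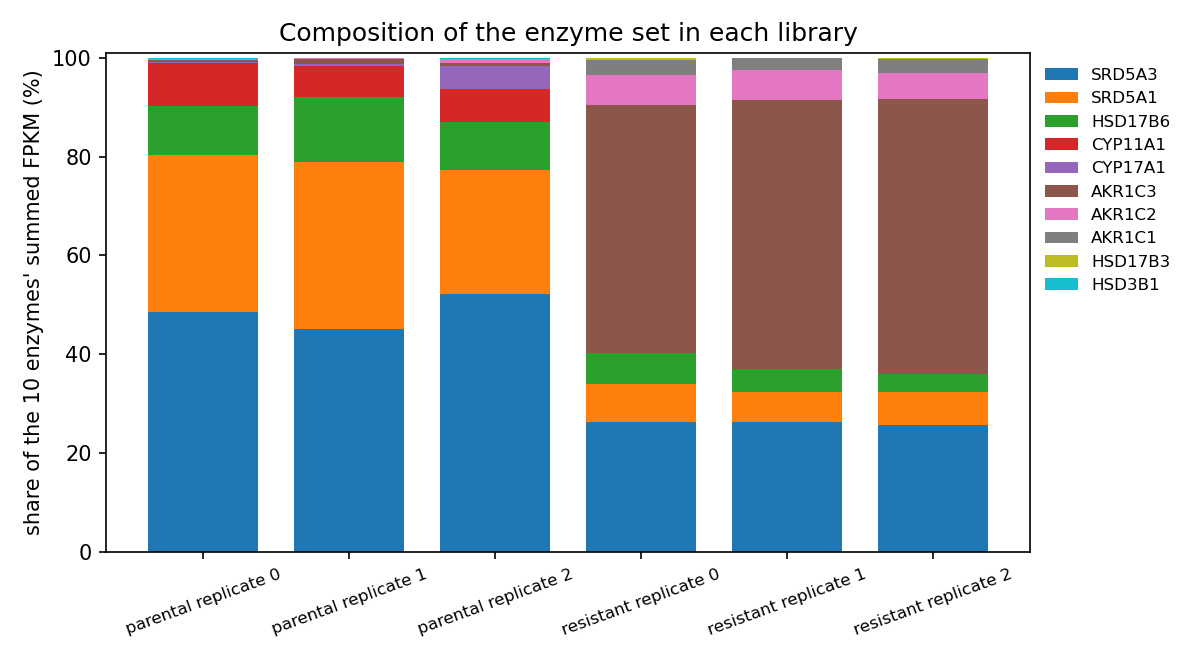
Share (%) of the summed FPKM of the 10 enzymes taken by each enzyme in the 3 parental and 3 resistant libraries, as stacked bars. SRD5A3 and SRD5A1 fill 77.4% to 80.4% of the parental bars, and AKR1C3 alone fills 50.3% to 55.7% of the resistant bars.

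AKR1C1, AKR1C2 and AKR1C3 lie side by side on chromosome 10. Of the 22 genes in the table from 250 kb before AKR1C1 to 250 kb after AKR1C4, the last gene of the cluster, 4 were above 0 in a parental library and 14 in a resistant library. All 7 of those tested rose, against 22.1% of all genes tested, although 3 of the 7 are the enzymes themselves and 4 of the 7, AKR1C1, AKR1C4, AKR1E2 and TUBAL3, reached the minimum mean only through the resistant libraries. AKR1E2, the nearest gene above 0 on the left, was listed at 0 in parental libraries and measured 2.12, 2.04 and 3.44 FPKM in resistant libraries (adjusted p = 0.000177, limma). AKR1C4, the liver enzyme of the family, was measured at 0, 0.0470 and 0 FPKM in parental and 0.577, 0.397 and 0.567 FPKM in resistant libraries (adjusted p = 0.00444, limma), and 9.60% of the AKR1C3 windows were shared with it. The nearest gene above 0 on the right of AKR1C4, RP11-445P17.3, had a value in resistant replicate 0 only, of 0.126 FPKM. NET1, a guanine nucleotide exchange factor chosen after its values were seen, was already well expressed in parental cells, at 31.0, 27.2 and 30.3 FPKM, and rose to 79.2, 89.1 and 95.5 FPKM (adjusted p = 7.11e-05, limma).

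**Figure D4:**
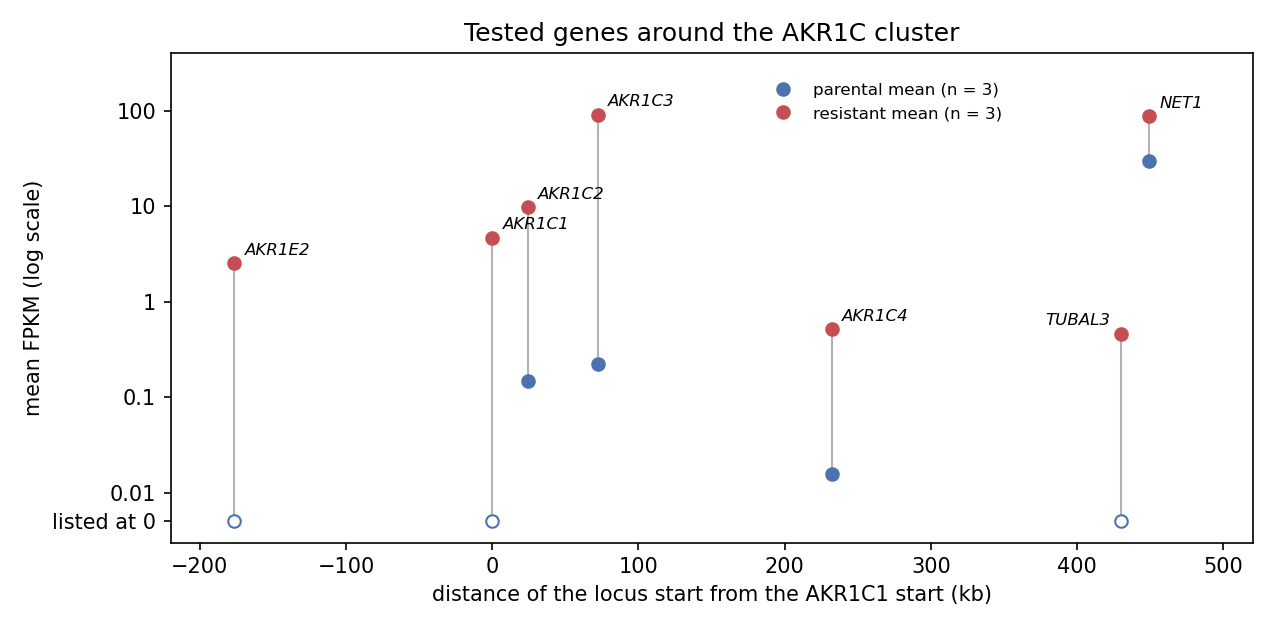
Mean FPKM (log scale, n = 3) of the 7 tested genes around the AKR1C genes in parental (blue, open where listed at 0) and resistant (red) libraries, by distance in kb of the locus start from that of AKR1C1. Each red point lies above its blue point, and the widest interval between groups with values above 0 is that of AKR1C3.

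The other genes of the pathway were followed in a list of 55, of which 47 were above 0 in a library and 36 were tested. Of these, 11 rose, 10 fell and 15 did not pass the threshold, beside 22.1% of all genes tested that rose and 22.3% that fell. AKR1C4, SLCO1A2, SLCO1B1 and SLCO2B1, among those that rose, reached the minimum mean only through the resistant libraries. UGT2B11, UGT2B28 and CYP3A43, among those that fell, reached it only through the parental libraries. The median log2 fold change of the 36 genes was -0.05, beside a median of -0.054 over all genes tested. Among 7 genes for cholesterol delivery and electron transfer, 1 rose and 2 fell. CYB5A, the cytochrome that promotes the cleaving activity of CYP17A1, fell from a mean of 321 to 75.3 FPKM (log2 fold change -2.09, adjusted p = 7.83e-06, limma). FDXR and FDX1, which carry electrons to CYP11A1, had log2 fold changes of -0.61 (adjusted p = 0.00403) and 0.72 (adjusted p = 0.0135, both limma). Of 5 other steroid synthesis enzymes none was tested, and CYP11B2, CYP21A2 and HSD3B2 were listed at 0 in every library.

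Among 17 other hydroxysteroid oxidoreductases, 13 were tested, of which 5 rose, 3 fell and 5 did not pass the threshold. Over all genes tested, 22.1% rose and 22.3% fell. AKR1C4, 1 of the 5 that rose, reached the minimum mean only through the resistant libraries. HSD17B11, which can oxidise androstanediol and sits on lipid droplets, rose from 5.76 to 46.9 FPKM (log2 fold change 3.01, adjusted p = 8.24e-06, limma). RDH5, a retinol dehydrogenase that also accepts androstanediol, rose with a log2 fold change of 2.24 (adjusted p = 0.000189, limma), and H6PD, which makes cofactor in the endoplasmic reticulum, had a log2 fold change of -0.99 (adjusted p = 0.000648, limma). AKR1D1, the other steroid double-bond reductase, was listed at 0 in the resistant libraries and did not pass the threshold (adjusted p = 0.0555, limma).

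Of 6 genes for the transfer and removal of sulfate, PAPSS1, which makes the sulfate donor, rose with a log2 fold change of 1.92 (adjusted p = 9.82e-05, limma). Steroid sulfatase, STS, and the sulfotransferase SULT2B1 fell, with log2 fold changes of -1.75 and -1.20 (adjusted p = 0.00129 and 0.00993, limma). Of 6 enzymes for glucuronide transfer, UGT2B15 rose with a log2 fold change of 1.66 and UGT2B11 fell with a log2 fold change of -2.62 (adjusted p = 0.000971 and 0.00415, limma). UGT2B28 fell to values listed at 0 in all resistant libraries (adjusted p = 0.000906, limma). UGT2B10 and UGT2B17 did not pass the threshold (adjusted p = 0.0943 and 0.834, limma). Of 5 genes for steroid hydroxylation and breakdown, CYP3A43 fell (log2 fold change -1.73, adjusted p = 0.0223, limma), while CYP3A5 and CYP7B1 did not pass the threshold (adjusted p = 0.300 and 0.0842).

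All 3 tested genes of 4 steroid uptake carriers rose, against 22.1% of all genes tested, but each had parental values near or at 0 and reached the minimum mean only through the resistant libraries, so that the count carries no information of its own. SLCO2B1 and SLCO1A2 had resistant means of 0.863 and 0.685 FPKM (adjusted p = 0.00346 and 0.00472, limma), and SLCO1B1 one of 0.266 FPKM (adjusted p = 0.0188, limma). NR5A2, a nuclear receptor that drives steroidogenic genes, was measured at 3.96 FPKM in resistant replicate 0 but at 0.338 and 0.525 FPKM in the other resistant libraries, and did not pass the threshold (adjusted p = 0.0689, limma). NR5A1, the corresponding receptor of the adrenal cortex, reached at most 0.0794 FPKM. The summed level of 5 adrenocortical markers, among them NR5A1, was at most 0.234 FPKM in any library, and CYP21A2 was at 0 in all.

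**Figure D5:**
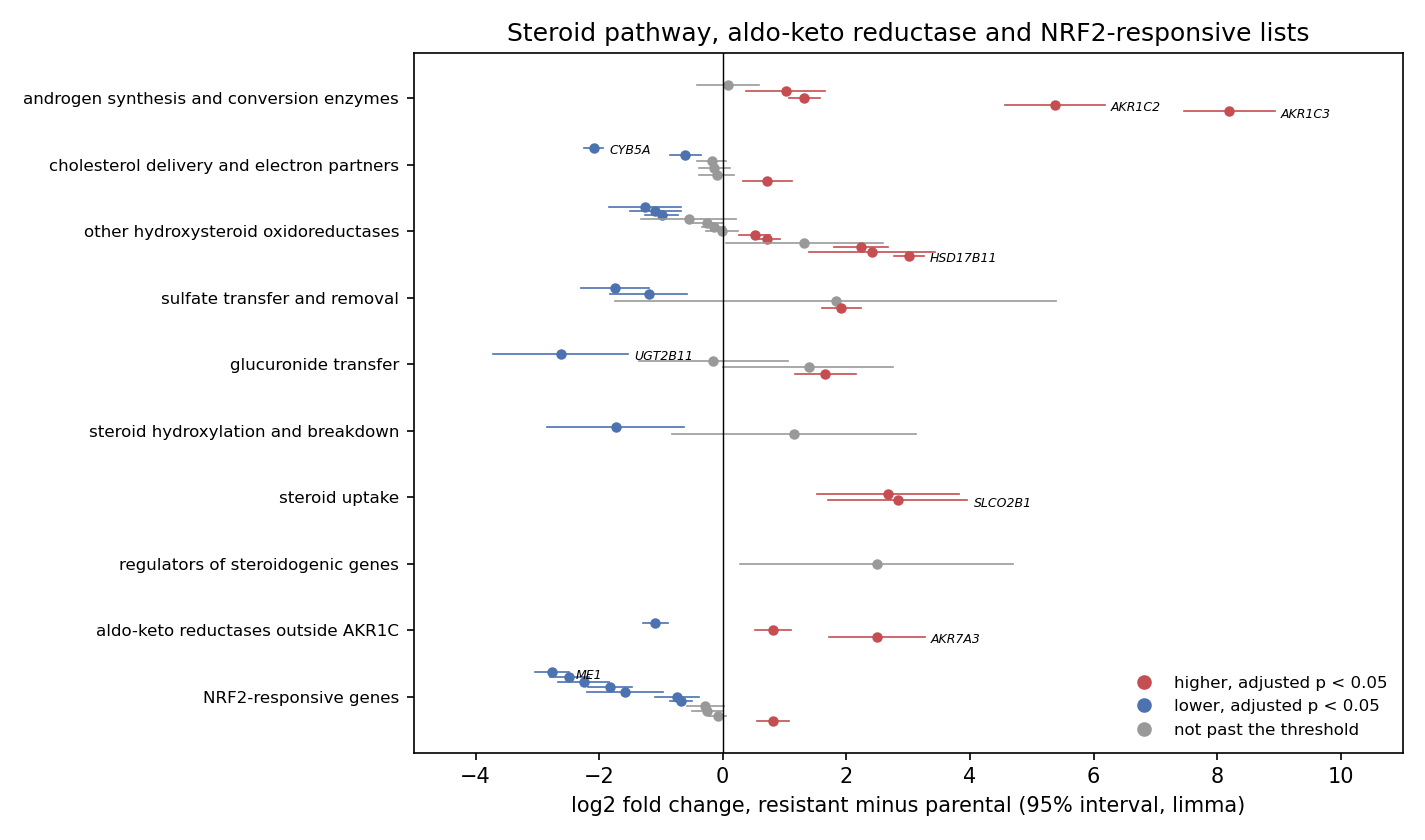
Log2 fold change (resistant minus parental, with 95% limma intervals) of every tested gene with values above 0 in both groups, by list and without the cell type marker lists, in red where higher, in blue where lower and in gray where not past the threshold. AKR1C3 at 8.20 and AKR1C2 at 5.37 lie to the right of every other gene shown, and CYB5A, UGT2B11, ME1, NQO1 and HMOX1 lie to the left of -2.

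Of 7 aldo-keto reductases outside the AKR1C genes, 4 were tested, of which 3 rose and 1 fell. Over all genes tested, 22.1% rose and 22.3% fell. AKR1E2, the neighbor of the AKR1C genes described above, is 1 of the 3 and reached the minimum mean only through the resistant libraries. Besides AKR1E2, AKR7A3 rose from 0.503 to 3.24 FPKM (log2 fold change 2.5, adjusted p = 0.00119, limma) and AKR7A2 had a log2 fold change of 0.81 (adjusted p = 0.00224, limma). AKR1A1, the most abundant of them, fell from 329 to 153 FPKM (log2 fold change -1.09, adjusted p = 0.000147, limma). AKR1B10 reached at most 0.0661 FPKM and was not tested.

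AKR1C1, AKR1C2 and AKR1C3 are known targets of NRF2, the transcription factor of the oxidative stress response. Of 11 other NRF2-responsive genes, 1 rose, 7 fell and 3 did not pass the threshold, with a median log2 fold change of -0.74, beside 22.1% of all genes tested that rose, 22.3% that fell and a median of -0.054. ME1, NQO1 and HMOX1 fell, with log2 fold changes of -2.76, -2.48 and -2.25 (adjusted p = 1.96e-05, 4.05e-05 and 0.000143, limma), and GCLC rose with a log2 fold change of 0.82 (adjusted p = 0.00118, limma). NRF2 activity was not measured, and its part in the AKR1C values was not tested.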

How the data were processed

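Of the 6 libraries, 3 were C4-2B parental and 3 C4-2B enzalutamide resistant, grouped by their labels. Per the study's methods, the 50 bp single-end reads were trimmed by the authors with TrimGalore, and the authors then aligned them with STAR to GRCh38 and derived expression with Cufflinks on a GENCODE annotation. The submitters' processing notes name Trimmomatic 0.27, FastQC 0.10.1 and a mouse build, but the positions in the table are human. The deposited table names no unit, and its values were taken as FPKM as made by the authors with Cufflinks. How libraries were scaled and whether strand was used are not given in the sources used here. The labels name both an unstranded and a stranded kit. The table holds no counts, so no counting interval was computed and precision at low levels is limited.

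The test was limma 3.58.1 (R 4.3.3, mean-variance trend, two-sided) on log2(FPKM + 0.1), for the 24468 genes whose mean reached 0.1 FPKM. Benjamini-Hochberg adjustment ran over all of them, with a threshold of 0.05. The fit was tested on simulated data. Positions came from a later GENCODE release on GRCh38 and promoters from RefSeq (GRCh38.p14), which had entries for 9 of the 10 enzymes. HSD17B6 was not among them. Python 3.11.15 with pandas 2.3.3, numpy 2.4.6, Biopython 1.88 and matplotlib 3.10.9 served for tables, sequences and figures.

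The enzymes and all lists were chosen with earlier results of these data known. All 10 enzymes were named, with up to 3 genes of each other list by smallest adjusted p, the closest relatives HSD3B2, SRD5A2 and AKR1C4, the nearest neighbors of the AKR1C genes with values above 0, and KLK3. A further gene covered by this rule is not reported here. Other names serve to state counts or were chosen after their values were seen. Alternatives covered the pseudocount, the filter, the scaling, the trend, the replicate block, a 2-fold minimum, the summed AKR1C genes and each library left out.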

Additional observations from a re-analysis of the deposited data

How the results depend on the processing

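AKR1C1, AKR1C2, AKR1C3, the summed AKR1C genes, SRD5A3 and CYP11A1 kept their direction and stayed past the threshold under every alternative run. HSD17B3 passed the threshold with a pseudocount of 0.01 FPKM (adjusted p = 0.0141, limma), without a filter on low values (0.0445), after scaling to the median ratio (0.0494), after rescaling without genes over 1% of a library (0.0381) and without the variance trend (0.0415), and ranged from 0.0191 to 0.113 with a library left out, apart from resistant replicate 0, without which it was not tested. CYP17A1 passed with a pseudocount of 0.01 FPKM (adjusted p = 0.0255, limma). With a library left out, the log2 fold change of HSD17B6 ranged from 0.84 to 1.23 and was no longer past the threshold in 4 of 6 cases, and that of SRD5A1 ranged from -0.14 to 0.22, turning negative at -0.14 without parental replicate 2. Apart from fewer libraries, the cause of these changes was not tested.

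The number of enzymes called ranged from 4, with the AKR1C genes as 1 summed value, to 8, with a pseudocount of 0.01 FPKM. Pathway genes called ranged from 14, with a filter at 1 FPKM that left 23 tested, to 23. Over all genes, the median log2 fold change moved between -0.085 and 0.041 with the scaling. Deviations of libraries with the same replicate number correlated at 0.008, 0.017 and -0.003, and those with different numbers at -0.026 to 0.02. No pairing by number was visible over all genes tested, but whether libraries with the same number were prepared together was not tested. With the replicate block, 6 enzymes and 19 pathway genes were called, and 9463 of all genes in place of 10868. Without read counts, values near that of 1 read, as in HSD3B1 and the lowest of HSD17B3, have an unknown counting error.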
